A study of Rattus norvegicus with 44 samples.

Results

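The periinfarct (PI) cortex is the rim of tissue around the core of a stroke. The data described here are its gene expression 3 d after permanent occlusion of the middle cerebral artery (pMCAO) compared directly with its gene expression at 24 h, across all genes measured. The comparison uses 8 of the 44 arrays of the series, chosen by their labels alone: 4 PI arrays at 3 d and 4 PI arrays at 24 h. Adult Sprague-Dawley rats had the right middle cerebral artery ligated for good, with both common carotid arteries closed for a limited time, a model that gives a cortical infarct. Each array held RNA pooled from 3 rats, so an array shows no spread between single animals. The 24 h pools are numbered 1 to 4 and the 3 d pools 9 to 12, different rats at the 2 times, so each change is a difference between animals and not a course followed within them. The core of the infarct and the contralateral cortex of the same pools were also hybridised. Sham-operated rats had the same operation without occlusion, sampled at 24 h and 3 d, and healthy rats had no operation. All operated rats shared the anaesthetic (ketamine, diazepam and atropine) and the analgesic meloxicam, a drug that inhibits prostaglandin synthesis.

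After a stroke the rim survives with reduced blood flow. Cells there meet misfolded protein and shortage of energy, and switch on heat shock proteins, the integrated stress response, immediate early genes and inflammatory signals such as cytokines and chemokines. Over the following days microglia, the resident macrophages of the brain, divide and take on a phagocytic state, monocytes and lymphocytes enter from the blood, and astrocytes become reactive and build a scar. RNA of a tissue piece mixes all of these cells, so that fewer cells of a type and less RNA per cell cannot be told apart in these data.

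Signals are log2 values after quantile normalization. A change is the mean at 3 d minus the mean at 24 h on that scale, with n = 4 arrays a time. Its standard error (SE) came from the limma fit of all 44 arrays. It rests on the spread within all groups and not within the PI groups alone. A probe was called where the limma p-value, adjusted by Benjamini-Hochberg over all 30538 probes kept, was below 0.05 and the change was at least 2-fold. In the 8 PI arrays 68.5 to 75.1% of spots were well above background and none was saturated. The array of pool 11 at 3 d stood apart from the other 3 of its time. Its mean correlation with them, across probes, was 0.954, against 0.963 to 0.970 for each of the others with their own time, and its mean correlation was 0.985 with the contralateral arrays of 3 d and 0.976 with the healthy arrays. The mean log2 signal of 21 excitatory neuron and synapse genes was 11.10 on this array and 10.19 to 10.58 on the other 3, with 11.14 to 11.25 on the contralateral arrays of 3 d. Values without it are given below where the count of a list described moves by more than 1.5 times, and for some single genes. How much periinfarct tissue each pool held was not tested. The arrays were printed 4 to a slide, and 1 slide held both times (24 h pools 1 and 2 and 3 d pool 12). These 3 arrays also enter the calls, so values within the slide are no separate replicate. Within it the median change (log2) was 2.47 for the mitosis list and 2.02 for the microglia list described below, -1.22 for heat shock proteins, -0.95 for acute cytokines and -0.43 for immediate early genes. The last 2 lists had -2.27 and -1.01 over all arrays, more than 2 times as large. When slide entered the model as a fixed term, 1303 of the 1755 called probes were called.

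Between 24 h and 3 d, 1755 of 30538 probes were called (5.75%), with 1040 higher at 3 d (3.41%) and 715 lower (2.34%). Counted by gene, each with its brightest kept probe, 553 of 12096 genes rose (4.57%) and 300 fell (2.48%), and the median change of all genes was 0.11. The ipsilateral cortex of sham-operated rats gave 0 calls between the same times by limma and the contralateral cortex of the infarct rats gave 0 as well, with 2862 and 1152 probes at an unadjusted p below 0.05. In PI 8564 of the 30538 probes had such a p by limma. That share is the background for the list counts at an unadjusted p below 0.05 given further on. For 1156 of the 1755 called probes the 4 arrays of one time all lay above the 4 of the other. Of all probes 9.52% lay wholly higher at 3 d and 7.2% wholly higher at 24 h. The calls rest on the same arrays, so this count is no separate support for them. Without pool 11 the calls numbered 2326 (7.62%), of which 1564 were higher (5.12%) and 762 lower (2.5%), and 1568 of the original calls were among them. By gene that was 1157 calls (9.57%), 859 higher (7.1%) and 298 lower (2.46%). Leaving out pool 9 of 3 d gave 674 probes higher, and leaving out pool 4 of 24 h gave 472 lower. The balance of rises and falls depended on the scaling: with arrays scaled by their 75th percentile in place of quantile normalization the median change of all probes was -0.15 in place of 0.03, and 593 probes were called higher and 1037 lower.

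**Figure D1:**
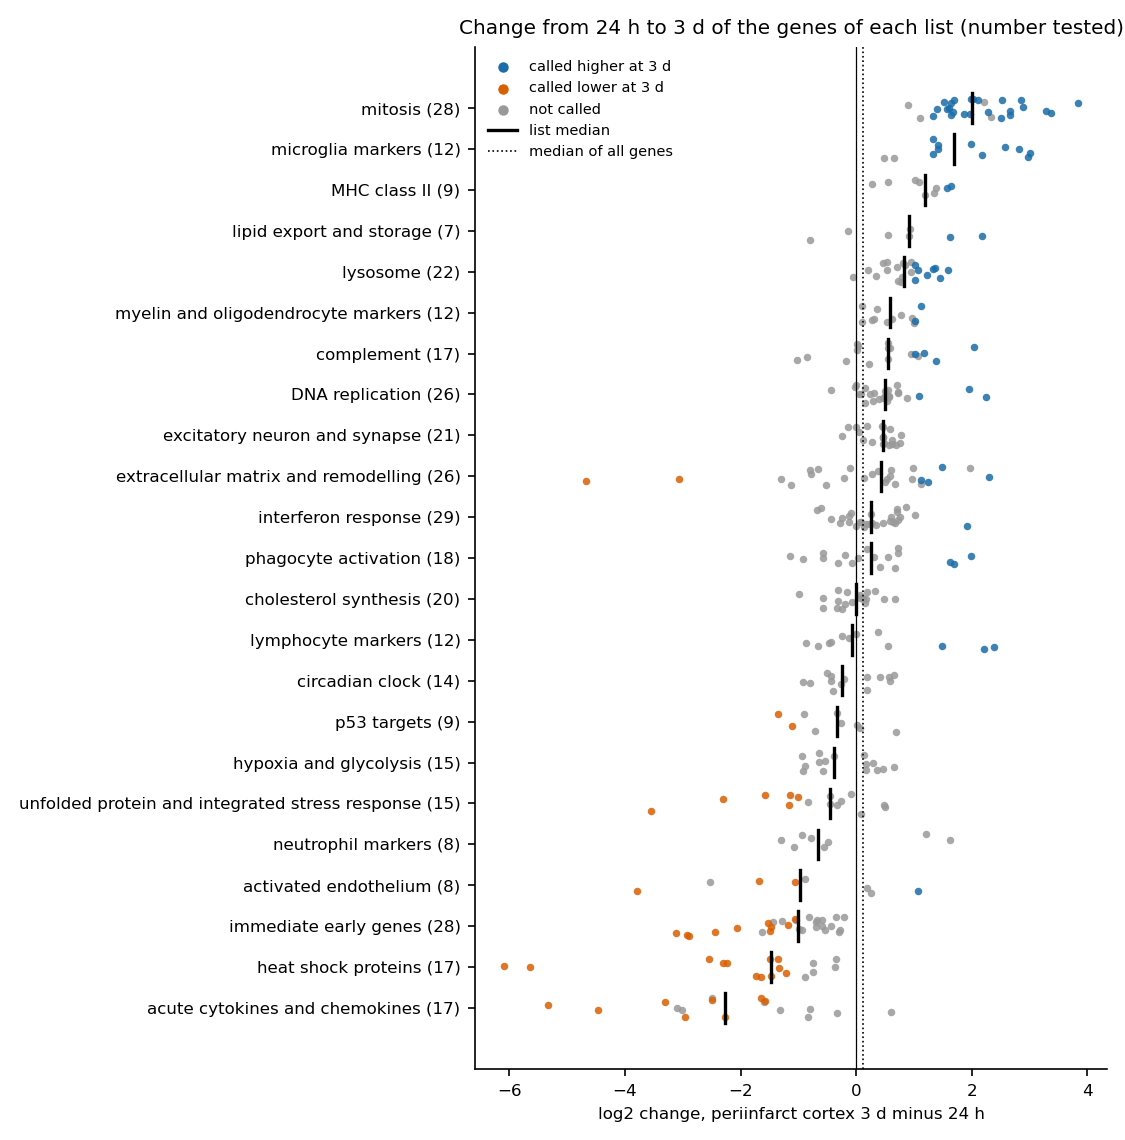
Change from 24 h to 3 d (log2, horizontal axis) of each tested gene of 23 lists, 1 point a gene, blue where called higher, orange where called lower and grey where not called, with the median of each list as a bar and that of all genes as a dotted line at 0.11. Called genes of the heat shock, immediate early and acute cytokine lists lie at the left alone, and those of the mitosis and microglia lists at the right alone.

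Most heat shock genes fell. These chaperones refold or hold damaged protein and are switched on by heat shock factor 1, which binds repeats of the triplet GAA and its complement TTC (the heat shock element). Of 17 genes tested, 12 were lower at 3 d and 0 higher, with a median change of -1.47, and the count was the same without pool 11. The mean log2 signal of the 17 genes was 12.33, 11.98, 12.50 and 13.06 on the 24 h arrays and 10.58, 10.82, 10.19 and 10.71 on the 3 d arrays. All 4 arrays at 24 h lay above all 4 at 3 d. The 3 d arrays of pools 9, 10 and 12 lay above the healthy arrays, from 10.29 to 10.44, and that of pool 11 lay below them. In 13 of the 17 genes the arrays of the 2 times did not overlap, where 7.2% of all probes lay wholly higher at 24 h.

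Among them the inducible Hsp70 pair fell the furthest. Hspa1b read 14.89, 13.94, 15.28 and 15.91 at 24 h and 8.73, 9.88, 8.02 and 9.01 at 3 d (log2 signal). Every 24 h array was far above every 3 d array, and the healthy mean was 8.00. The change was -6.09 ± 0.32 (SE, n = 4), a 68.3-fold fall (adjusted p = 7.4e-16, limma). Hspa1a, which encodes almost the same protein and whose transcript may share signal with the probe of Hspa1b, read 12.37, 11.59, 12.96 and 13.65 at 24 h and 7.05, 8.32, 5.73 and 6.88 at 3 d, a change of -5.65 ± 0.41. Hsph1, a nucleotide exchange factor for Hsp70, read 11.70, 11.66, 12.18 and 12.89 at 24 h and 9.35, 9.16, 9.76 and 9.93 at 3 d and fell 5.87-fold (adjusted p = 4.5e-11). The Hsp40 co-chaperone Dnajb1 changed by -1.73 ± 0.19, the lens and glial small heat shock protein Cryab by -2.24 ± 0.21, the co-chaperone Bag3 by -1.64 ± 0.26, and the mitochondrial pair Hspd1 and Hspe1 by -1.36 ± 0.14 and -1.49 ± 0.12. The cytosolic Hsp90 gene Hsp90aa1 fell 2.31-fold. The constitutive Hspa8 had a change of -0.35 ± 0.29 and was not called (adjusted p = 0.45). The 5 genes not called were Hspa1l, Dnaja4, Hspa8, Hspb8 and Hspa4l, each with a change below 0.

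The small heat shock gene Hspb1 (Hsp27) read 13.95, 14.31, 14.16 and 14.31 at 24 h and 12.65, 13.11, 8.86 and 12.89 at 3 d, a change of -2.30 ± 0.54 (adjusted p = 0.0027). On 3 of the 4 arrays at 3 d it was far above the healthy mean of 8.60, and on that of pool 11 it lay beside it. Without pool 11 its change was -1.30, still called.

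The promoters of Hsph1 and Hspd1 are shown since both genes fell and both hold the heat shock element, searched on both strands as the triplets GAA, TTC and GAA with any 2 bases between neighbours. Each is 150 bases from RefSeq (build GRCr8), 5′ to 3′ on the strand of the gene, with the element in capitals. That of Hsph1 (chr12:10427218-10427367, plus strand) runs up to the base before the transcription start, and that of Hspd1 (chr9:64084138-64084287, minus strand) starts 250 bases before it and holds 2 overlapping matches.
Hsph1: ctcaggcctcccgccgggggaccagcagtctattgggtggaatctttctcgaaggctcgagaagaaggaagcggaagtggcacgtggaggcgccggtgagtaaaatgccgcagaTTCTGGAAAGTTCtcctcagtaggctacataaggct
Hspd1: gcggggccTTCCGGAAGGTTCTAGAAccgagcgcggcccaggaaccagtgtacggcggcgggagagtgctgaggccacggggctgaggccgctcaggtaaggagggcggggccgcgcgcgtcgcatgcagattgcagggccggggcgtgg
In Hsph1 the element began 36 bases before the start and in Hspd1 242 and 237 bases before it. Over windows of 300 bases (250 before the start and 50 after), the element was in 6 of the 14 list genes with a promoter in the table (42.9%) and in 0.798% of all 33469 promoters. The 6 were Hsph1, Dnaja1, Hspa8, Hspd1, Hspe1 and Chordc1, and 5 of these fell. A match is a description of the letters and no evidence of binding.

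Some genes of the integrated stress response also fell. This pathway slows translation through phosphorylated eIF2 alpha and raises the transcription factors Atf4 and Ddit3 (CHOP). Of 15 genes of the unfolded protein and integrated stress response, 6 were lower at 3 d and 0 higher, with a median of -0.46 (5 lower and 1 higher without pool 11). Trib3, a pseudokinase target of Atf4 and Ddit3, read 9.67, 8.39, 9.68 and 10.40 at 24 h and 5.59, 6.46, 5.47 and 6.43 at 3 d and fell 11.7-fold (change -3.55 ± 0.27, adjusted p = 4.1e-12). Chac1, which breaks down glutathione, read 10.93, 10.01, 10.23 and 11.60 at 24 h and 8.32, 7.99, 8.83 and 8.42 at 3 d and fell 4.94-fold (adjusted p = 8.0e-10). In both genes the 2 times did not overlap. Ppp1r15a (GADD34), the phosphatase subunit that ends the response, changed by -1.58 ± 0.25 and Ddit3 by -1.01 ± 0.19, the latter at the edge of the 2-fold limit and called in 5 of the 8 fits that each left out 1 array. Atf5 and Sesn2 were the other 2 that fell. The tested chaperones of the endoplasmic reticulum were not called: Pdia4 had a change of -0.09 ± 0.19, Hyou1 of 0.48 ± 0.26 and Calr of 0.08 ± 0.14. Hspa5, Atf4 and Xbp1 of the list had no kept probe and were not tested.

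**Figure D2:**
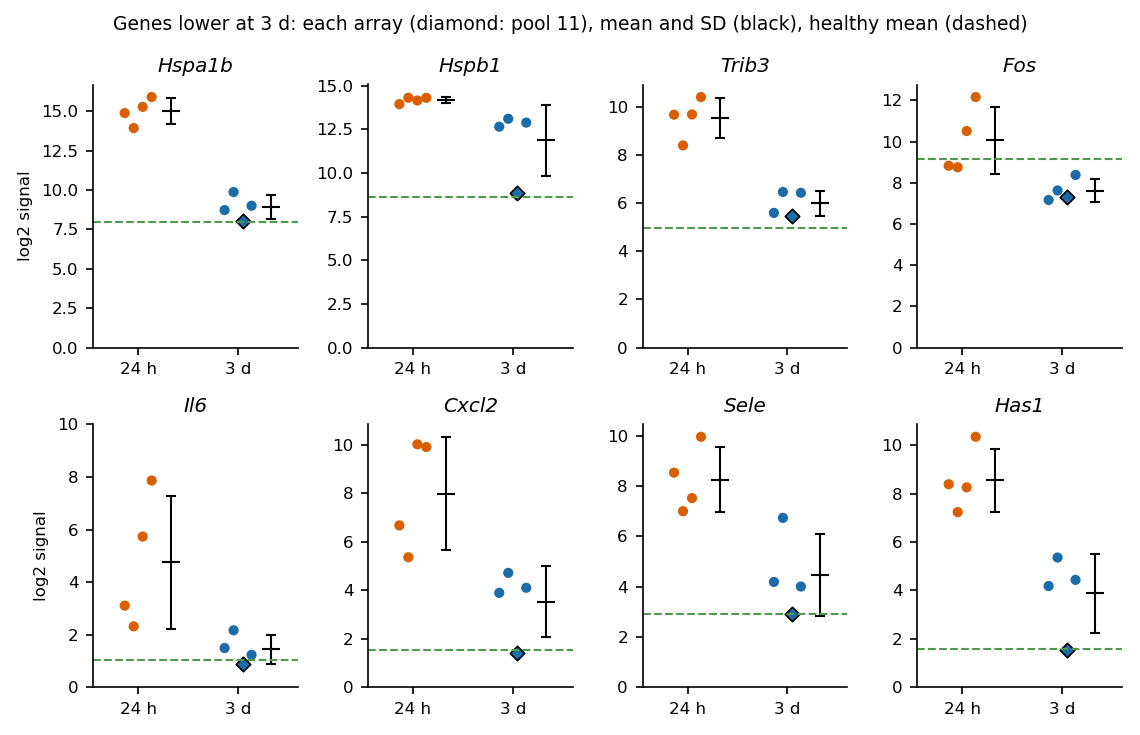
Log2 signal of genes that fell, one panel a gene, with a point for each PI array at 24 h (orange) and 3 d (blue, pool 11 as a diamond), the mean and SD in black and the healthy mean as a dashed line. In Hspa1b and Trib3 every 24 h array lies above every 3 d array.

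Acute cytokines and chemokines fell in part. Of 17 genes tested 8 were lower at 3 d and 0 higher, with a median of -2.27, and 7 were lower without pool 11 (median -1.51). The mean of the list was 6.26, 6.01, 7.21 and 8.66 at 24 h and 5.14, 6.00, 3.21 and 5.09 at 3 d. Pools 3 and 4 were the high arrays of 24 h, pool 2 lay next to pool 10 of 3 d, and the healthy arrays lay between 2.86 and 3.18, where pool 11 came close to them. Ccl20, a chemokine for cells that carry Ccr6, read 5.41, 5.91, 6.61 and 10.86 at 24 h and 2.12, 3.63, 0.72 and 1.01 at 3 d (adjusted p = 2.0e-04). Of its 4 values at 3 d 1 was well above background, so that the fitted fall of 40.2-fold rests on dim values and its size is uncertain. Cxcl2, which attracts neutrophils, read 6.68, 5.37, 10.02 and 9.91 at 24 h and 3.90, 4.72, 1.41 and 4.11 at 3 d and fell 22-fold (adjusted p = 2.1e-04). Il6 read 3.11, 2.32, 5.73 and 7.86 at 24 h and 1.5, 2.17, 0.88 and 1.24 at 3 d, not well above background on any 3 d array, which makes it at least 4.2-fold lower at 3 d (adjusted p = 2.1e-04). Here and below "at least" is a lower bound, in which each dim array is given the weakest signal still measurable above its background.

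The other called members were Ccl3 and Ccl4, which attract monocytes, Il11, the interleukin-1 receptor antagonist Il1rn, and the prostaglandin synthase Ptgs2 (COX-2), the enzyme that meloxicam inhibits. Ptgs2 changed by -1.58 ± 0.43 (adjusted p = 0.0095). Ccl3 read 10.06, 8.62, 11.61 and 12.20 at 24 h and 8.62, 8.92, 5.37 and 7.78 at 3 d, and the times overlapped. Il1b read 7.46, 6.49, 9.02 and 10.19 at 24 h and 6.94, 8.21, 5.33 and 6.32 at 3 d and was not called (adjusted p = 0.057), while another of its probes was called lower. Cxcl1 and Ccl2 had changes of -3.09 ± 1.19 and -3.01 ± 1.07, whose adjusted p of 0.076 and 0.051 missed the limit.

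The promoter of Il6 is shown as the list's best known target of NF-kB, the factor that drives many inflammatory genes. The 150 bases before its start (GRCr8, chr4:5894576-5894725, minus strand, 5′ to 3′) hold the motif searched, GGGA and TTCC with any 2 bases between them, in capitals, 68 bases before the start.
Il6: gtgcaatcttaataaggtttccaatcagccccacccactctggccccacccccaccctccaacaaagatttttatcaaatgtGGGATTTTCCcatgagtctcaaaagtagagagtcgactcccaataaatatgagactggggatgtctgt
This motif was in 3 of the 12 list genes with a promoter (Il6, Cxcl1 and Ccl7) and in 1.3% of all promoters. Of the 3, Il6 was called.

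Immediate early genes, which neurons and other cells switch on within minutes of a stimulus, were lower in 10 of 28 genes and higher in 0, with a median of -1.01 and changes below 0 in all 28. The mean of the list was 9.10, 9.17, 9.47 and 11.02 at 24 h and 8.32, 8.51, 8.46 and 8.65 at 3 d. Pool 4 stood far above the other 24 h arrays, and the list count without it is not given here. Pools 1 and 2 lay within the healthy range of 9.05 to 9.36, and all 3 d PI arrays lay below it. The contralateral arrays of the same pools also lay below it, from 8.17 to 8.38 at 24 h and from 8.04 to 8.76 at 3 d. Fos read 8.83, 8.75, 10.51 and 12.16 at 24 h and 7.17, 7.63, 7.31 and 8.38 at 3 d and fell 5.43-fold (adjusted p = 0.0022). Its 3 d arrays were also all below the healthy mean of 9.14. Fosl1 (Fra-1) read 8.00, 7.29, 9.12 and 10.10 at 24 h and 6.23, 7.28, 2.06 and 6.47 at 3 d, pool 11 lying far below the other 3 d arrays, and Atf3, an injury-induced factor, fell 7.56-fold (adjusted p = 0.0013). Jun changed by -1.48 ± 0.19, Dusp5, a phosphatase that acts on ERK, by -2.07 ± 0.42, and Nptx2, a secreted synaptic protein, by -1.52 ± 0.40. Npas4, a factor of active neurons, was not well above background at 3 d and was at least 2.48-fold lower (adjusted p = 0.018).

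Several early genes tied to synaptic activity were not called. Arc read 11.44, 11.57, 11.07 and 13.57 at 24 h and 10.93, 10.71, 12.05 and 11.63 at 3 d, below the healthy mean of 13.89 on every array, with a change of -0.59 ± 0.54 (adjusted p = 0.5). Egr1 had a change of -0.94 ± 0.38 and was called without pool 11 (-1.24). Fosb, Egr3, Nr4a1 and Homer1 had changes between -0.59 and -0.21. The cyclic AMP response element TGACGTCA was in 4 of the 21 early genes with a promoter and 1.83% of all promoters. For the serum response element 1 fixed sequence was searched with no base left free, so other forms of it were not counted. That sequence was in 1 of the 21 (Egr1) and 0.0329% of all promoters. The other 7 of the 28 genes (Fos, Jun, Arc, Egr3, Nr4a3, Atf3 and Ier3) had no promoter window and were not searched.

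Among vessel genes, E-selectin (Sele), the adhesion molecule that cytokines raise on endothelium, read 8.53, 7.00, 7.52 and 9.96 at 24 h and 4.19, 6.74, 2.92 and 4.01 at 3 d and fell 13.8-fold (adjusted p = 1.7e-04). Angiopoietin 2 (Angpt2), which loosens vessels, read 9.78, 9.76, 11.25 and 11.35 at 24 h and 8.87, 9.90, 8.25 and 8.42 at 3 d and changed by -1.68 ± 0.35, with 2 of its 3 probes called. Icam1 changed by -1.06 ± 0.35 and lost its call without pool 11, while Vcam1 had a change of 0.25 ± 0.11 (adjusted p = 0.14). Of the 8 genes of activated endothelium 3 fell and 1 rose (Lyve1, a hyaluronan receptor of lymphatic vessels and border macrophages, with 1 of 2 probes called). The hyaluronan synthase Has1 read 8.38, 7.24, 8.26 and 10.34 at 24 h and 4.18, 5.36, 1.52 and 4.44 at 3 d, a 25.6-fold fall (adjusted p = 3.2e-05).

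Matrix genes moved both ways, 4 of 26 up and 2 down with a median of 0.44, or 8 up and 2 down with a median of 0.71 without pool 11. The 4 that rose with all arrays were Lum, Mmp2, Col1a1 and Postn. The collagen-binding proteoglycan Lum read 3.11, 3.78, 3.99 and 4.68 at 24 h and 7.00, 6.94, 4.89 and 5.92 at 3 d and rose 4.91-fold (adjusted p = 0.002). Gelatinase A (Mmp2) read 7.74, 7.79, 7.94 and 7.72 at 24 h and 9.81, 9.76, 7.97 and 9.60 at 3 d, pool 11 being level with the 24 h arrays, and 1 of its 2 probes was called. Col1a1, a chain of type I collagen, changed by 1.24 ± 0.41 and kept its call in 3 of the 8 fits without 1 array. Fibronectin (Fn1) had a change of -0.11 ± 0.29.

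Other genes that fell include Cdkn1a (p21) and Mdm2, the 2 of 9 p53 targets called, by -1.36 ± 0.35 and -1.11 ± 0.16, each with 1 of 2 probes called. Sulfiredoxin (Srxn1), which repairs peroxiredoxins, changed by -1.54 ± 0.34 and was the 1 of 14 oxidative stress and iron genes called, where 7.05% of all genes were. Nfkbia, the inhibitor of NF-kB that NF-kB itself raises, changed by -1.03 ± 0.33 and lost its call without pool 11. Serpinb2 (PAI-2) read 3.51, 4.09, 3.90 and 6.79 at 24 h and 0.59, 0.57, 0.56 and 0.94 at 3 d, not well above background at 3 d and at least 3.7-fold lower there (adjusted p = 5.9e-06). None of the 15 hypoxia and glycolysis genes was called by limma, with 7 at an unadjusted p below 0.05, where 8564 of all 30538 probes were. Vegfa, the vessel growth factor, had a change of -0.88 ± 0.27 (adjusted p = 0.02), short of 2-fold, and was called without pool 11.

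Beside Hspa1b, Hspa1a, Ccl20, Has1 and Cxcl2, the 10 largest falls with no overlap held a keratin and 4 predicted genes. Krt25, a keratin of hair roots, read 7.18, 6.36, 6.85 and 7.36 at 24 h and 1.77, 1.87, 2.43 and 2.13 at 3 d and was at least 19-fold lower at 3 d (adjusted p = 4.0e-11). LOC689410, a hypothetical protein, read 11.96, 10.33, 11.63 and 12.50 at 24 h and 6.59, 6.67, 7.02 and 6.73 at 3 d, a 28.9-fold fall (adjusted p = 1.4e-14). The hypothetical LOC686147 changed by -4.62 ± 0.32. In these 3 genes every 3 d array lay below the healthy mean, at 2.89, 7.10 and 6.01. LOC686038 and LOC100362386, of the same 10, and RGD1560570, which was among the 5 largest falls relative to sham cortex, were at least 10.6-fold, at least 8.45-fold and at least 6.76-fold lower, and none of the 3 was well above background on any 3 d array.

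Most genes of the mitosis list rose. Mitosis genes are expressed as cells pass from G2 into M phase and are silent in resting tissue. Of 28 tested, 24 were higher at 3 d and 0 lower, with a median of 2.00. The mean of the list was 5.65, 4.91, 5.17 and 4.24 at 24 h and 7.89, 8.24, 4.56 and 7.77 at 3 d, against 4.15 to 4.43 on the healthy arrays. The arrays of pools 9, 10 and 12 lay above every 24 h array. Pool 11, at 4.56, lay within the range of the contralateral cortex at 3 d (4.21 to 4.63). With it, the times did not overlap in 5 of the 28 genes (9.52% of all probes lay wholly higher at 3 d). Without it all 28 were called higher, with a median of 2.84.

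Ccnb2, a cyclin that drives entry into mitosis, read 4.28, 3.39, 3.27 and 2.96 at 24 h and 7.67, 8.04, 4.32 and 7.36 at 3 d and rose 10.4-fold (change 3.37 ± 0.45, adjusted p = 1.4e-06). Its partner kinase Cdk1 read 8.96, 7.99, 8.40 and 6.59 at 24 h and 11.34, 11.76, 6.82 and 11.17 at 3 d and rose 4.88-fold (adjusted p = 0.017), or by 3.44 on the log2 scale without pool 11. Ttk, a spindle checkpoint kinase, read 6.22, 5.64, 6.01 and 3.56 at 24 h and 8.73, 8.91, 6.5 and 8.69 at 3 d and rose 7.21-fold (adjusted p = 4.3e-06). In each of the 3, the array of pool 11 was the lowest of its time and the other 3 d arrays lay close together. The kinetochore protein Cenpf was not well above background on any 24 h array and was at least 4.59-fold higher at 3 d (adjusted p = 2.5e-05), with 0.72, 0.95, 0.62 and 0.59 at 24 h and 5.61, 5.81, 1.29 and 5.56 at 3 d. Topoisomerase Top2a changed by 2.50 ± 0.67, Ccnb1 by 2.88 ± 0.51, the kinesin Kif20a by 2.65 ± 0.47 and Aurora kinase Aurka by 1.64 ± 0.24. The 4 genes not called were Aurkb, Kif11, Melk and Cks2.

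The promoters of Ccnb2, Cdk1 and Top2a are shown because all of them rose and hold the pair of elements known from G2/M genes, the cell cycle homology region (CHR, TTTGAA) and the CCAAT box. Each is the 150 bases before the start, 5′ to 3′ on the strand of the gene, from RefSeq (GRCr8), with both elements in capitals on either strand. The regions are chr8:79981659-79981808 (minus strand) for Ccnb2, chr20:19265143-19265292 (plus strand) for Cdk1 and chr10:84473094-84473243 (minus strand) for Top2a.
Ccnb2: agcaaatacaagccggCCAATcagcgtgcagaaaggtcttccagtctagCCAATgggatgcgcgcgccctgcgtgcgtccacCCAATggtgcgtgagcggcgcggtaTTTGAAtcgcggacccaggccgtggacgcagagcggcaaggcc
Cdk1: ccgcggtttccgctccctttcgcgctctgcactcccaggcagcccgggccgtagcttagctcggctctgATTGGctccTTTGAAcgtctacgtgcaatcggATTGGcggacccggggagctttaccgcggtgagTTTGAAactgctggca
Top2a: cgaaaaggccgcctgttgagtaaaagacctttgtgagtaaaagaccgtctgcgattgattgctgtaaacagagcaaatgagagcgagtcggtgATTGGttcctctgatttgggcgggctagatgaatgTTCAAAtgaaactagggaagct
The CHR nearest the start began 43 bases before it in Ccnb2, 16 in Cdk1 and 22 in Top2a. In windows of 300 bases both elements were in 12 of the 22 mitosis genes with a promoter (54.5%) and in 7.41% of all promoters. The CHR alone was in 14 of 22 (63.6%) against 18.3% of all, and CCAAT in 16 of 22 (72.7%) against 37.5%. The E2F motifs GCGGGAAA and GGCGGGAA were in 0 and 1 of the mitosis promoters, and in 3 and 4 of the 21 promoters of DNA replication genes, where the CHR was in 1.

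DNA replication genes, which act in S phase, had fewer calls: 3 of 26 were higher and 0 lower, with a median of 0.50. These were the ribonucleotide reductase subunits Rrm1 and Rrm2 and thymidine kinase Tk1, all of nucleotide supply. Rrm2 read 4.98, 4.65, 4.96 and 4.20 at 24 h and 8.04, 8.66, 3.36 and 7.69 at 3 d and rose 4.73-fold (adjusted p = 0.0094, 1 of 2 probes called). Tk1 rose 3.86-fold and Rrm1 2.11-fold. The sliding clamp Pcna read 10.05, 9.98, 10.27 and 10.38 at 24 h and 10.36, 10.71, 9.35 and 10.49 at 3 d (change 0.06 ± 0.19), and the helicase subunit Mcm2 had a change of 0.53 ± 0.32 (adjusted p = 0.28). Without pool 11 the count was 10 of 26, Mcm2 among them.

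**Figure D3:**
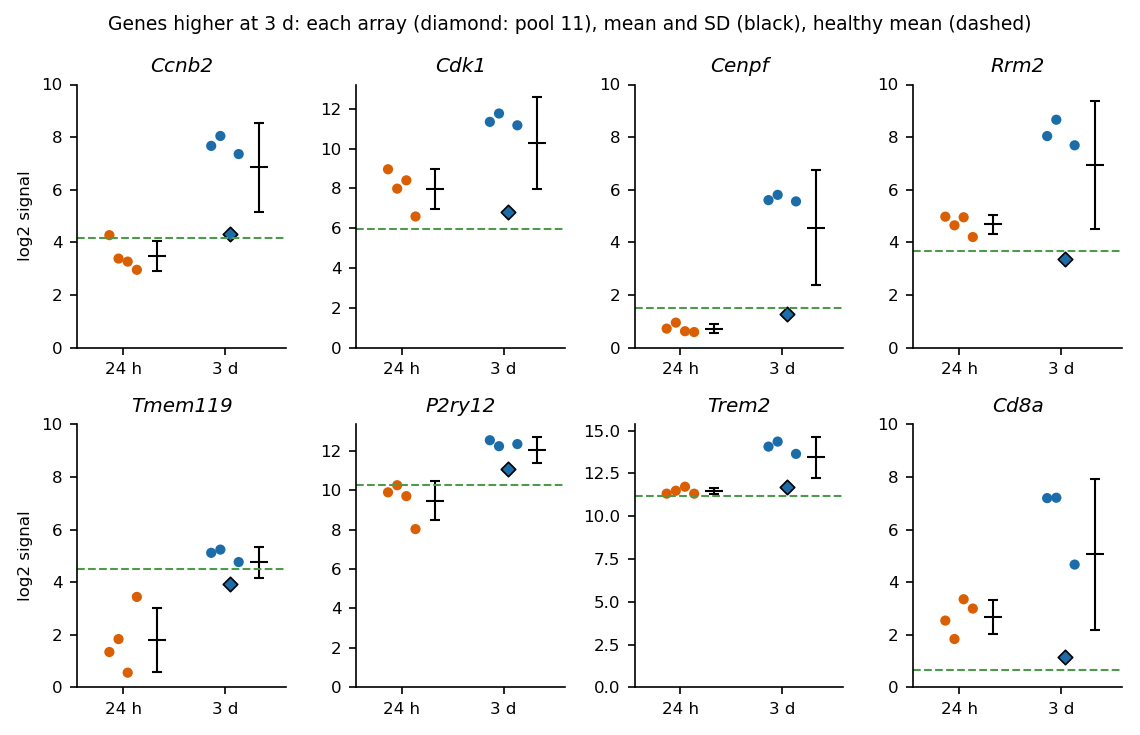
Log2 signal of genes that rose, one panel a gene, with a point for each PI array at 24 h (orange) and 3 d (blue, pool 11 as a diamond), the mean and SD in black and the healthy mean as a dashed line. The array of pool 11 lies near the 24 h arrays in Cdk1, Rrm2 and Cd8a, while Tmem119 is higher on every 3 d array.

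Most microglia markers rose. Of 12 tested, 10 were higher at 3 d and 0 lower, with a median of 1.70 (11 and 2.14 without pool 11). In 9 of the 12 the times did not overlap, where 9.52% of all probes lay wholly higher at 3 d. The mean of the list was 6.97, 7.07, 7.02 and 6.74 at 24 h and 9.37, 9.21, 7.62 and 8.98 at 3 d. All 24 h arrays lay below the healthy range of 7.11 to 7.38 and all 3 d arrays above it. Of the 3 d arrays pool 11 was the lowest, within the contralateral range at 3 d (7.42 to 7.78). The ipsilateral sham arrays of 24 h, from 6.75 to 7.02, also lay below the healthy range. P2ry12, the purine receptor that guides resting microglia to damage, read 9.88, 10.24, 9.69 and 8.02 at 24 h and 12.52, 12.22, 11.04 and 12.33 at 3 d and rose 5.94-fold (adjusted p = 6.4e-08). Its relative P2ry13 read 2.97, 3.01, 2.72 and 1.13 at 24 h and 5.92, 5.64, 4.22 and 5.35 at 3 d, well above background on 2 of 4 arrays at 24 h, a change of 2.82 ± 0.36. Tmem119, a surface protein of resident microglia, read 1.34, 1.84, 0.56 and 3.44 at 24 h and 5.11, 5.24, 3.93 and 4.76 at 3 d (change 2.97 ± 0.52, adjusted p = 8.9e-05), with 1 of the 24 h values well above background, so that the size of this change is uncertain.

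At 24 h, P2ry13 and Tmem119 were below their healthy means of 3.77 and 4.50 on all 4 arrays, and P2ry12 below its mean of 10.23 on 3 of 4. The fractalkine receptor Cx3cr1 read 6.07, 6.12, 6.37 and 6.21 at 24 h and 8.01, 7.98, 6.40 and 8.04 at 3 d and rose 2.67-fold (adjusted p = 2.6e-05). The growth factor receptor Csf1r changed by 1.98 ± 0.29 and the factor Sall1 by 1.42 ± 0.22. Fcrl2, matched to the marker Fcrls, rose 7.99-fold, with pool 11 among the 24 h values. Itgam was not called.

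Besides Cenpf, Ccnb2, Ttk and Tmem119, the 10 largest increases without overlap held 2 other genes known from myeloid cells. Siglec5, a sialic acid receptor, read 1.62, 2.28, 3.53 and 3.00 at 24 h and 5.68, 5.74, 4.91 and 5.58 at 3 d and changed by 2.87 ± 0.33 (adjusted p = 6.7e-08). Ltc4s, the leukotriene C4 synthase, read 3.69, 4.16, 3.37 and 2.00 at 24 h and 6.53, 5.97, 6.05 and 6.23 at 3 d and changed by 2.89 ± 0.25 (adjusted p = 9.0e-11), with pool 11 level with the others of its time. Mrgprx3, a receptor of the Mas-related family, and Rarres1, a retinoic acid responsive gene, were at least 4.05-fold and at least 4-fold higher, being not well above background at 24 h. Hacd4, a fatty acid enzyme, and the crystallin Crygn changed by 3.06 ± 0.65 and 2.94 ± 0.54.

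Genes of phagocytes rose in smaller number, 3 of 18, with a median of 0.25. Trem2, the lipid receptor of phagocytic microglia, read 11.32, 11.49, 11.72 and 11.31 at 24 h and 14.06, 14.36, 11.70 and 13.64 at 3 d and rose 3.94-fold (adjusted p = 9.3e-06). Cd68, a lysosomal protein of macrophages, read 9.37, 8.82, 9.76 and 9.89 at 24 h and 12.33, 12.95, 8.11 and 11.20 at 3 d and Igf1, a growth factor that microglia secrete, changed by 1.61 ± 0.35. In all of them pool 11 lay with the 24 h arrays or below them. Gpnmb, a protein of lipid-laden macrophages, had a change of 0.72 ± 0.57 (adjusted p = 0.43) with all arrays and was called without pool 11 (1.88), when the count became 7 of 18 and the median 1.00. Spp1 (osteopontin) and Lgals3 (galectin 3) had changes of -1.14 ± 1.00 and -0.07 ± 0.63, neither called.

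Lysosome genes rose in 8 of 22 (13 without pool 11), with a median of 0.83. Npc2, which carries cholesterol out of the lysosome, read 8.59, 8.25, 8.71 and 8.47 at 24 h and 10.65, 10.67, 8.92 and 10.09 at 3 d and rose 2.99-fold (adjusted p = 8.0e-06). Cathepsins Ctsh and Ctss changed by 1.44 ± 0.24 and 1.02 ± 0.15, progranulin (Grn) by 1.37 ± 0.27 and the hexosaminidase subunit Hexa by 1.22 ± 0.19. In 10 of the 22 the times did not overlap, where 9.52% of all probes lay wholly higher at 3 d. Lamp1 had a change of 0.72 ± 0.14 (adjusted p = 4.1e-04), under the 2-fold limit. Of 7 lipid export and storage genes Pltp, the phospholipid transfer protein, and Soat1, which stores cholesterol as ester, rose, by 1.63 ± 0.22 and 2.17 ± 0.62, and 4 of the 7 did without pool 11.

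Complement genes rose in 4 of 17 (7 without pool 11), among them C1qa, C1qc and C2, with a median of 0.55. C1qa, a chain of the first component made by microglia, read 11.91, 11.96, 11.88 and 11.84 at 24 h and 13.82, 13.86, 11.90 and 13.51 at 3 d and rose 2.59-fold (adjusted p = 6.8e-05), with pool 11 level with 24 h. C3 had a change of 0.59 ± 0.32 and was not called.

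The count of antigen presentation genes depended on pool 11. Of 9 class II genes RT1-Da and RT1-Ba were called higher with all arrays (median 1.18) and 8 without pool 11 (median 1.89). RT1-Da read 7.95, 7.64, 8.93 and 8.90 at 24 h and 10.58, 11.45, 7.31 and 10.38 at 3 d, and the invariant chain Cd74 had a change of 1.08 ± 0.42 (adjusted p = 0.08). Among 12 lymphocyte markers 3 rose and 0 fell, but 5 of the 12 changes were above 0 and the median was -0.06 (0.20 without pool 11). Cd8a, a chain of the co-receptor of cytotoxic T cells, read 2.54, 1.84, 3.35 and 3.00 at 24 h and 7.19, 7.21, 1.16 and 4.67 at 3 d and changed by 2.38 ± 0.69. The other chain, Cd8b, read 5.37, 4.67, 5.08 and 5.13 at 24 h and 8.23, 9.05, 4.94 and 6.86 at 3 d and changed by 2.21 ± 0.52. Pools 9 and 10 were highest in both, pool 12 was between, and pool 11 lay with the 24 h arrays or below them. The third, Cd4, was not well above background on any of the 8 arrays, so that its call has no level behind it. The T cell receptor genes Cd3d and Cd3g had changes of -0.66 ± 0.49 and 0.55 ± 0.51, neither called.

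Chemokines of the later phase had 1 call in 16, the receptor Cxcr3, and interferon response genes had 1 in 29. The latter was Mx1 (change 1.91 ± 0.57, adjusted p = 0.02), while Isg15 had a change of -0.13 ± 0.34 and Irf7 of 0.17 ± 0.31. Without pool 11 the counts were 4 of 16 and 3 of 29. Of all genes 4.57% were called higher with all arrays and 7.1% without pool 11. Nothing is read from the counts of these lists with all arrays. Siglec1 (sialoadhesin, a macrophage receptor raised by interferon) read 0.59, 1.07, 0.54 and 1.08 at 24 h and 5.63, 5.75, 0.59 and 2.92 at 3 d and was at least 2.56-fold higher, on 3 of the 4 arrays at 3 d. Neutrophil markers had 0 of 8 called by limma, with 4 at an unadjusted p below 0.05, and 1 without pool 11. S100a8, which neutrophils hold in large amounts, read 6.59, 5.85, 10.12 and 8.49 at 24 h and 7.39, 9.23, 5.29 and 4.83 at 3 d, scattered at both times.

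**Figure D4:**
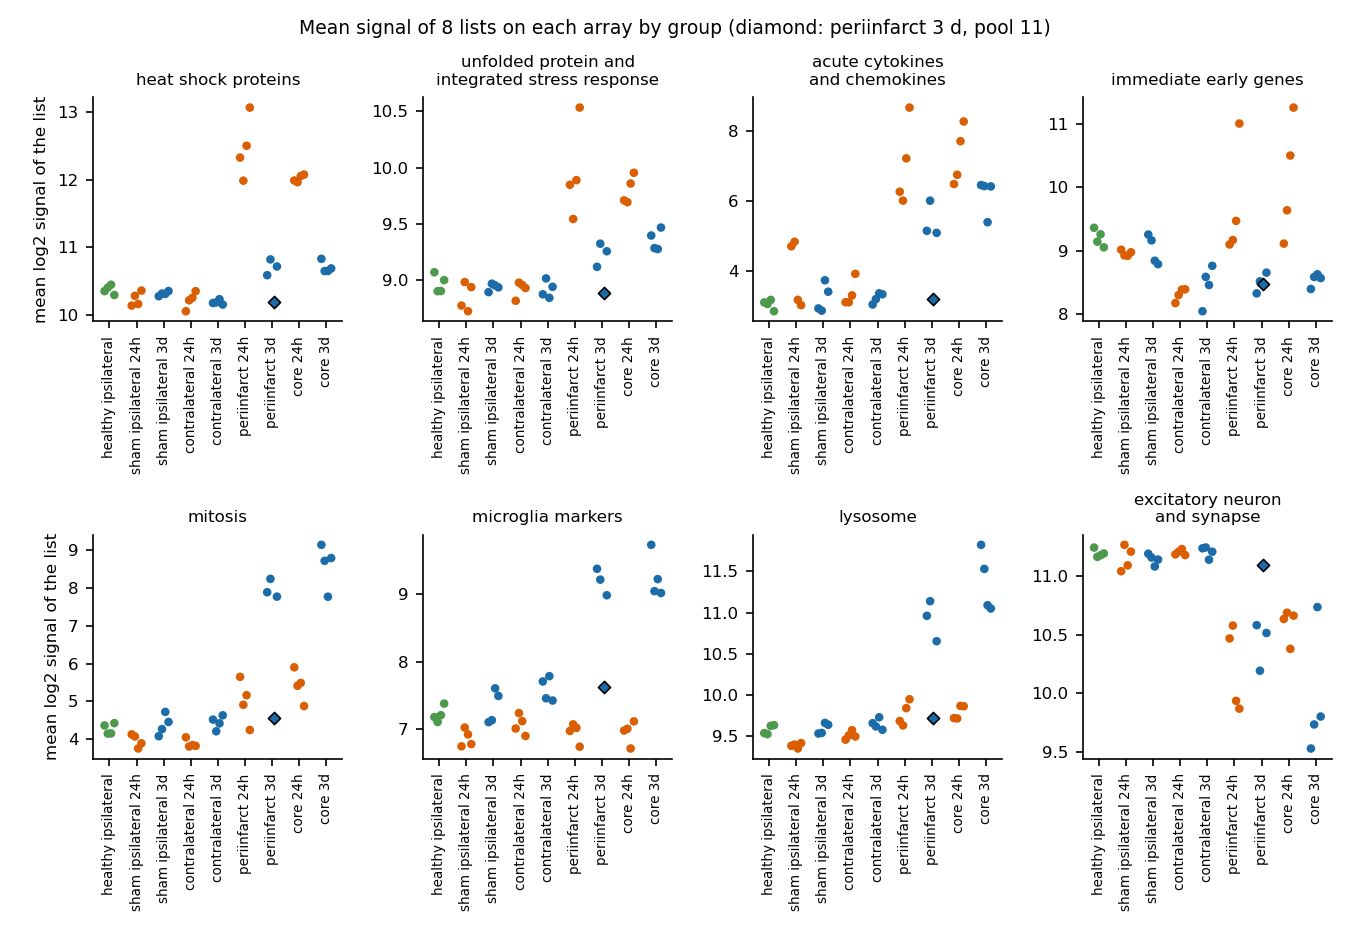
Mean log2 signal of the genes of 8 lists on each array of the healthy, sham, contralateral, PI and core groups, one panel a list, each point an array. The heat shock list is high on the 4 PI and the 4 core arrays at 24 h, and the mitosis and microglia lists are high on the core arrays and 3 PI arrays at 3 d while the array of pool 11 lies with the contralateral arrays.

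The lists of neurons and glia had 0 to 2 calls each. Of all genes 7.05% were called, and nothing is read from these counts. None of 21 excitatory neuron and synapse genes and none of 9 interneuron genes was called by limma (12 and 1 at an unadjusted p below 0.05). Their medians were 0.46 and 0.12. The first was 0.33 without pool 11 and 0.01 within the slide that held both times. Synapsin (Syn1) read 7.40, 7.56, 6.83 and 6.82 at 24 h and 7.95, 7.68, 8.18 and 7.89 at 3 d, every 3 d array above every 24 h array, with a change of 0.77 ± 0.23 (adjusted p = 0.017) that stayed under 2-fold. The vesicular glutamate transporter Slc17a7 had a change of 0.57 ± 0.26 and the kinase Camk2a of 0.47 ± 0.35. At an adjusted p below 0.05 without a fold limit Syn1 and Eno2 were the members that passed, where 4592 of all 30538 probes did. Of the 21 changes 19 were above 0, and the median of all genes was also above 0, at 0.11. The mean of the list was 10.47, 10.58, 9.94 and 9.87 at 24 h and 10.58, 10.19, 11.10 and 10.52 at 3 d. All of these were below the lowest healthy array of 11.17.

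Astrocyte markers had 1 call in 14, the connexin Gjb6 (change 1.10 ± 0.24), which was lost without pool 11. The median of the list was 0.50, against 0.11 for all genes. In 6 of the 14 every 3 d array lay above every 24 h array, as in 9.52% of all probes. Aldh1l1, a folate enzyme that marks astrocytes, read 9.47, 9.10, 9.16 and 9.07 at 24 h and 10.22, 9.99, 10.22 and 10.08 at 3 d, a change of 0.93 ± 0.14 (adjusted p = 1.0e-05) under 2-fold with no overlap. The water channel Aqp4 had a change of 0.61 ± 0.16. Of 16 reactive astrocyte genes 1 fell and 0 rose with all arrays (median -0.62), and 1 fell and 3 rose without pool 11 (median -0.14). The gene that fell was the pentraxin Ptx3, which read 5.80, 5.81, 6.18 and 9.02 at 24 h and 3.97, 4.71, 0.59 and 3.76 at 3 d. The intermediate filament Gfap, the classical marker of reactive astrocytes, read 11.74, 11.65, 11.86 and 11.50 at 24 h and 12.10, 12.15, 9.76 and 12.71 at 3 d, above the healthy mean of 8.36 at both times, with a change of -0.01 ± 0.41. A second probe of Gfap was called lower. Vimentin (Vim) had a change of 0.77 ± 0.39 and was called higher without pool 11.

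Myelin genes had 2 calls in 12, Cnp and Ugt8, with changes of 1.02 ± 0.26 and 1.13 ± 0.36, and neither was called when arrays were scaled by their 75th percentile in place of quantile normalization. The median of the list was 0.58, against 0.11 for all genes, and all 12 changes were above 0. Mbp, the myelin basic protein, had a change of 0.36 ± 0.27. Of 8 oligodendrocyte precursor genes Neu4, a sialidase, rose by 1.37 ± 0.33. Of 16 endothelial markers Slco1a4, a transporter of the blood-brain barrier, rose 2.64-fold (adjusted p = 2.0e-04). Cholesterol synthesis (20 genes) and circadian clock (14) had none by limma, with 5 and 8 at an unadjusted p below 0.05. Glucocorticoid response had Nfkbia alone among 9, where 7.05% of all genes were called.

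Markers of tissue outside the cortex were checked too. Blood cells (4 genes), striatum (8) and skeletal muscle (8) had 0 calls by limma, with 0, 1 and 1 at an unadjusted p below 0.05. Of 11 choroid plexus and meninges genes 1 was called (7.05% of all genes were), the potassium channel subunit Kcne2, which fell 3.28-fold. Ttr, the transport protein that choroid plexus makes in large amounts, read 2.54, 1.39, 0.56 and 2.96 at 24 h and 4.02, 2.83, 8.00 and 6.61 at 3 d, a wide scatter (adjusted p = 0.33) whose part in other results was not tested.

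The change with time was set against that of sham-operated cortex by the difference of the 2 changes in the same fit. That difference was called for 504 probes (1.65%), 189 higher (0.619%) and 315 lower (1.03%), and 452 of the 1755 PI calls were among the probes that differed. The count was 1064 without the PI array of pool 11 and 291 without that of pool 4. Heat shock proteins were the list with the most: 13 of 17 differed, all lower, and their median change in sham cortex was 0.09. The mitosis list had a median change of 0.43 in sham and 0.40 in contralateral cortex and the microglia list 0.32 and 0.46, with no call in either tissue. Hspa1b had a change of 0.01 in sham cortex and the difference was -6.11 ± 0.45 (SE). Of the stress response 4 of 15 differed, of mitosis 5 of 28 (Ccnb2, Aurka, Tpx2, Cenpf and Ttk), of the microglia markers 3 of 12 (P2ry12, P2ry13 and Sall1) and of the acute cytokines 1 of 17 (Il6). For Ccl20, Cxcl2 and Sele the changes in sham were -2.63, -1.76 and -0.74, and the difference from PI did not pass the test.

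The core of the infarct changed in more probes, 4346 between the same times (14.2%), 2668 higher at 3 d (8.74%) and 1678 lower (5.49%). Its change differed from that of PI in 1532 probes (5.02%), 958 of them higher in PI relative to core (3.14%) and 574 lower (1.88%). This count was unstable. The core and PI arrays of a pool come from the same rats, and with pool as a fixed block it was 0 (7183 probes at an unadjusted p below 0.05). It was also 0 when only the compared groups were fitted (4845 at an unadjusted p below 0.05), 3 without the core array of pool 9 at 3 d, 4279 without that of pool 11, and 231 without the PI array of pool 11. The values that follow are therefore changes side by side. Excitatory neuron and synapse genes had a median change of 0.46 in PI (0.33 without pool 11) and -0.61 in the core. Of these genes, 12 of 21 were called as differing in the fit without the block. Mitosis genes had medians of 2.00 and 3.21, microglia markers 1.70 and 2.36, phagocyte genes 0.25 and 2.04, matrix genes 0.44 and 1.63, heat shock proteins -1.47 and -0.87, and acute cytokines -2.27 and -0.66. Trem2 rose by 1.98 in PI and 3.42 in the core, Cd68 by 1.69 and 4.03, and Cd8a by 2.38 and 5.94. In the mean of the mitosis list the 4 core arrays at 3 d lay between 7.77 and 9.14, beside 7.77 to 8.24 in PI pools 9, 10 and 12.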

How the data were processed

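Cortical RNA was measured on 44 Agilent 1-colour rat arrays (11 groups of 4, 4 arrays to a slide). Per the labels and the file headers, the authors scanned the arrays and made the deposited intensity values (the processed signal of each spot, background-subtracted) with Agilent Feature Extraction 10.7.3.1. The authors also deposited a table of normalized log2 values for a part of the probes, made in GeneSpring, which was used as an alternative, with a coefficient of variation in percent that was not used. From the scanner intensities, spots marked as outliers were set to missing, the processed signal was set to at least 1, quantile normalized over all arrays and taken to log2, and the spots of a probe were averaged. A probe was kept where it was above the 20th percentile and above background on at least 75% of the arrays of 1 group and had a coefficient of variation over 2.5%, which left 30538 probes, of which 107 had a missing value on some array that the fit left out for that probe. One linear model with 11 group means was fitted (limma 3.58.1 in R 4.3.3, 33 residual degrees of freedom), with empirical Bayes moderation and Benjamini-Hochberg adjustment over all kept probes, as in the study's methods. A gene was read from its brightest kept probe. Of 41012 probes, 16815 were named through RefSeq accessions, 2502 through the authors' table and 21695 had no symbol. Genes named in the text are the 10 largest increases and decreases without overlap, up to 4 called genes and the first 3 of each list, and the 5 largest in each difference of changes, with other list members named where a count is described. Some genes that this rule names are not reported here. The gene lists, and the genes named, were chosen with earlier results of these data known. In simulated data with 200 changed probes the fit called 158 of them and 4 others. The simulated arrays were independent, with no slide or pool effect and no deviant array, so these counts are no error rate of the real calls. Core and PI arrays of a pool come from the same rats. Their deviations from the group means correlated by 0.149 on average at 24 h and -0.004 at 3 d within a pool, and by -0.050 and 0.002 between pools. P-values and SEs rest on the spread between pools of rats within a group, estimated over all 11 groups. The number of arrays limits the precision. Alternatives were the scaling, the background correction (normexp on the median signals), the filter, slide and pool as blocks, the samples fitted, and each array left out.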

Additional observations from a re-analysis of the deposited data

Results flagged for a closer look

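In 11 of the 206 groups of 4 PI values examined for the named genes, 1 array stood far from the other 3 by Dixon's ratio (its gap to the next value over the whole range, above its critical value), where chance gives about 1 in 20. In 8 of the 11 it was the array of pool 11, the lowest at 3 d, with ratios of 0.893 for Hspb1, 0.884 for Mmp2, 0.880 for Cdk1, 0.945 for Cenpf, 0.908 for Ttk, 0.888 for Top2a, 0.960 for Cx3cr1 and 0.930 for Fcrl2. Pool 4 at 24 h was highest in Ptx3 (0.884) and lowest in P2ry13 (0.848), and pool 12 at 3 d was highest in Serpinb2 (0.920).

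The change from 24 h to 3 d differed between PI and sham cortex in 504 probes. Among genes that fell in PI the difference (PI minus sham, log2) was -6.11 for Hspa1b, -6.15 for Hspa1a, -2.80 for Hsph1 and -1.82 for Dnajb1, all heat shock genes. It was -3.59 for Trib3, -2.19 for Chac1, -1.82 for Ppp1r15a and -1.21 for Ddit3 of the stress response. Among the predicted genes and the keratin it was -4.45 for Krt25, -4.80 for LOC689410, -4.13 for LOC686038, -4.63 for LOC686147, -4.54 for LOC100362386 and -4.90 for RGD1560570. Il6 differed by -3.17, Angpt2 by -1.88, Srxn1 by -1.78, Serpinb2 by -4.66 and Kcne2 by -1.63. Krt25, LOC686038, LOC100362386, RGD1560570, Il6 and Serpinb2 were not well above background on any PI array at 3 d, so their values are fitted differences and not measured sizes.

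Among genes higher at 3 d in PI the difference from sham was 2.80 for Ccnb2, 3.15 for Cenpf and 2.36 for Ttk in mitosis. It was 2.40 for P2ry12, 2.88 for P2ry13, 2.73 for Siglec5, 3.24 for Siglec1, 2.62 for Ltc4s, 1.99 for Trem2 and 1.32 for C1qa among genes of microglia and macrophages. Mrgprx3 differed by 3.11, Mmp2 by 1.37, Npc2 by 1.22, Cd4 by 1.44, Pltp by 1.28 and Aldh1l1 by 1.11. Cenpf, Siglec1 and Mrgprx3 were not well above background on any PI array at 24 h, and Cd4 on none at either time, so their values too are fitted differences and not measured sizes.

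The change differed between PI and core in 1532 probes, a count that was 0 with pool as a fixed block. Lower in PI than in core were the changes of Fabp4, a fatty acid carrier of macrophages and fat cells (-3.90), Cd8a (-3.56), LOC100362386 (-3.39), Cd8b (-2.85), Col1a1 (-2.34), Cd68 (-2.34), Igf1 (-2.10), Fn1 (-1.70), Trem2 (-1.45), Hspa1b (-1.43) and Trib3 (-1.28). The changes of Slc17a7 (1.16) and Syn1 (1.15) were higher in PI. The same limit holds for LOC100362386, dim at 3 d, and for Fabp4, not well above background on any core array at 24 h.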

How the results depend on the processing

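The PI count of 1755 calls (1040 higher, 715 lower) was 4592 without a fold minimum (2843 and 1749), 853 by gene symbol (553 and 300), 909 averaging the probes of each gene (603 and 306), 426 with normexp background correction (173 and 253) and 793 with the PI groups alone (392 and 401). Scaling by the 75th percentile gave 593 higher. The causes were not tested. Leaving out each array in turn gave 1215 to 2326 calls, 674 (without pool 9 of 3 d) to 1564 (without pool 11) higher and 472 (without pool 4 of 24 h) to 826 lower. The difference from core (1532) was 2676 without a fold minimum, 714 by symbol, 851 with the mean of probes, 569 with normexp, 834 with slide as a fixed block, 0 with the compared groups alone and 3 to 4279 with 1 array left out. With pool as replicate block, core and PI of a pool being paired, it was 2550 (random) and 0 (fixed). It moved by over 1.5 times without core pools 2 and 4 of 24 h (906 and 1007), core pools 10 and 12 of 3 d (394 and 991) and PI pools 3 and 4 of 24 h (639 and 522), and 2841 without PI pool 10. The difference from sham (504) was 257 by symbol, 293 with the mean of probes, 238 with normexp, 184 with the compared groups alone and 291 to 1064 with 1 array left out. Sham cortex gave 0 to 2 calls and contralateral cortex 0 to 7 with 1 array left out, and contralateral cortex gave 1 with its groups alone. Of the 90 named genes called, 0 changed sign in 20 settings, and 207 of 1782 values by gene and setting were not called, 17 genes being called in every setting. Normexp lost the call of 40 and the PI groups alone of 56. With 1 array left out, from 5 (without pool 11) to 20 (without pool 9 of 3 d) lost it, with 17 without pool 4 of 24 h. Dim genes such as Il6, Cenpf and Tmem119 have levels near background at 1 time, where signal over background limits the change.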
